A study of Mus musculus with 8 samples.

Results

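Polyamine synthesis and its feedback control were followed through 8 mouse genes: the 5 synthesis genes Odc1, Amd1, Amd2, Srm and Sms, the antizyme genes Oaz1 and Oaz2, and the antizyme inhibitor gene Azin1. They were chosen by gene symbol, 1 row each, from the 54532 rows of the expression table. Reads were found for 25062 rows. Of the 8 genes, 7 were among the 11421 genes tested, and Amd2 was too low for the test. Cultured macrophages grown from mouse bone marrow were profiled by bulk RNA sequencing in 4 groups of 2 libraries: spermine with 3 h of the type I interferon IFN-β, spermine at 0 h, PBS with 3 h of IFN-β, and PBS at 0 h. PBS is a salt buffer and served as the control for spermine. Every 3 h group had received IFN-β, so IFN-β and the passage of 3 h cannot be told apart. The sources used here do not give the dose or duration of spermine, the dose of IFN-β, or the strain, sex and age of the mice. The sample labels name PBS where the text on the series names DMSO, and the extraction protocol names blood where the labels name macrophages. The labels do not say whether the libraries of a group came from separate mice or cultures, so the p-values measure the spread between libraries, which may be technical. Expression is given as FPKM, fragments scaled by gene length and by a library factor of the authors. Since whole cultures were lysed, fewer cells of a type and less RNA per cell cannot be told apart.

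Polyamines are small positively charged molecules that bind RNA and other nucleic acids. ODC, encoded by Odc1, makes putrescine from ornithine. The SAM decarboxylase encoded by Amd1 makes the aminopropyl donor that spermidine synthase (Srm) and spermine synthase (Sms) add to putrescine and to spermidine in turn. When polyamines are plentiful, ribosomes change frame on antizyme mRNAs and full-length antizyme is made. Antizyme binds ODC, sends it to the proteasome and slows polyamine uptake, and antizyme inhibitor, a relative of ODC without its activity, takes antizyme away from ODC. Polyamines also lower the translation of the SAM decarboxylase mRNA through a short upstream reading frame in its leader. These controls act on translation and on protein, which mRNA levels do not measure.

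On GRCm38, Odc1 (ENSMUSG00000011179) lies at chr12:17544794-17551505 on the plus strand. Amd1 (ENSMUSG00000075232) lies at chr10:40287458-40302186 and Amd2 (ENSMUSG00000063953) at chr10:35708675-35711892, both on the minus strand. Srm (ENSMUSG00000006442) lies at chr4:148591503-148594993 on the plus strand and Sms (ENSMUSG00000071708) at chrX:157443855-157492287 on the minus strand. The antizyme genes are on the plus strand, Oaz1 (ENSMUSG00000035242) at chr10:80826656-80829290 and Oaz2 (ENSMUSG00000040652) at chr9:65668001-65690300, and Azin1 (ENSMUSG00000037458) is on the minus strand at chr15:38487427-38519266. All 8 are annotated as protein coding.

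The frameshift sites of the antizyme mRNAs are shown because they are the places where polyamines are known to set antizyme output. The capitals mark TCCTGAT, the codon TCC followed by the stop TGA at which the frame changes, with the next base. The Oaz1 site lies at chr10:80828281-80828310 on the plus strand of GRCm38, and the motif begins at codon 68 of the first frame of a GENCODE transcript. The Oaz2 site lies at chr9:65686258-65686287 on the plus strand, and its motif begins at codon 32. Of the 30 bases, 28 are the same in both genes.
Oaz1 frameshift site: ctcggtggtgcTCCTGATgtccctcaccca
Oaz2 frameshift site: ctctgtggtgcTCCTGATgcccctcaccca

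Amd1 and Amd2 are shown side by side because their mRNAs are nearly identical while the bases before their starts are not. Amd1 has 8 exons in the GENCODE transcript compared, and Amd2 has 1, without introns. Their coding sequences of 1002 bases are identical at 1001 positions. The leader of each, from the RefSeq start windows on GRCm38.p6, holds the same upstream reading frame of 21 bases, 7 codons with the stop, in capitals here. The Amd1 stretch is chr10:40302150-40302179 and the Amd2 stretch is chr10:35711855-35711884, both on the minus strand.
Amd1 leader: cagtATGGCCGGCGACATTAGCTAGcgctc
Amd2 leader: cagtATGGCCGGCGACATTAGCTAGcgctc

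The 100 bases before the RefSeq starts follow, on the minus strand, at chr10:40302189-40302288 for Amd1 and chr10:35711892-35711991 for Amd2. Capitals mark TATATAA, known from promoters as the TATA box, which was found for Amd1 and not for Amd2. Over the 250 bases before the start, compared position by position without gaps, 25.6% were identical.
Amd1 upstream: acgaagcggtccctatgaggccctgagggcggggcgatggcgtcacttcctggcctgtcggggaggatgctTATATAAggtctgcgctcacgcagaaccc
Amd2 upstream: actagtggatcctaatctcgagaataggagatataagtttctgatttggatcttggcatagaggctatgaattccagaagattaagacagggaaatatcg

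RefSeq start windows of 300 bases, 250 before and 50 after the start, were at hand for 6 of the 8 genes, in 7 windows. TATATAA, sought on both strands, was in 3.24% of all 32851 windows and in the Amd1 window alone among the 7. The E-box CACGTG, a sequence that MYC can bind, was in 7.15% of all windows and in 1 of the Sms windows. TGACNNNGC, a core of antioxidant response elements, was in 12.4% of all windows and in the Oaz1 window. A core of interferon-stimulated response elements was in 3.44% of all windows and in 0 of the 7. These are matches of letters only, and no window of the 7 held more than 1 of the 4 motifs.

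With spermine, Odc1 mRNA was 1.97-fold higher than with PBS at 3 h and 2.55-fold higher at 0 h, and Azin1 mRNA was 2.03-fold and 2.10-fold higher. Amd1 mRNA was 3.12-fold lower with spermine at 3 h and 2.27-fold lower at 0 h. In limma, 7 of the 7 genes tested passed an adjusted p of 0.05 between spermine and PBS at 3 h, 5 higher and 2 lower, against a background of 40.5% of all tested genes, 19.9% higher and 20.6% lower. At 0 h, 4 of the 7 passed, 3 higher and 1 lower, against a background of 41.2%, 22% higher and 19.2% lower. Under TPM scaling, which gives every library the same total, 4 were higher and 2 lower at 3 h, beside 43.9% of all tested genes, 11.7% higher and 32.2% lower. At 0 h under that scaling 2 were higher and 2 lower, beside 51.9%, 10.4% higher and 41.5% lower. With backgrounds this high, a count of called genes by itself says little about these genes. The median log2 change of the 7 genes was 0.61 at 3 h and 0.39 at 0 h, beside −0.0028 and 0.013 over all tested genes. The libraries of the compared groups did not overlap for any of the 7 genes at 3 h, where 71.3% of all tested genes did not overlap, or at 0 h, where 70.9% did not. The number of all genes called was 4626 at 3 h, and 2912 without spermine 3 h replicate 1. It was 4706 at 0 h, and 2999 without PBS 0 h replicate 2.

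**Figure D1:**
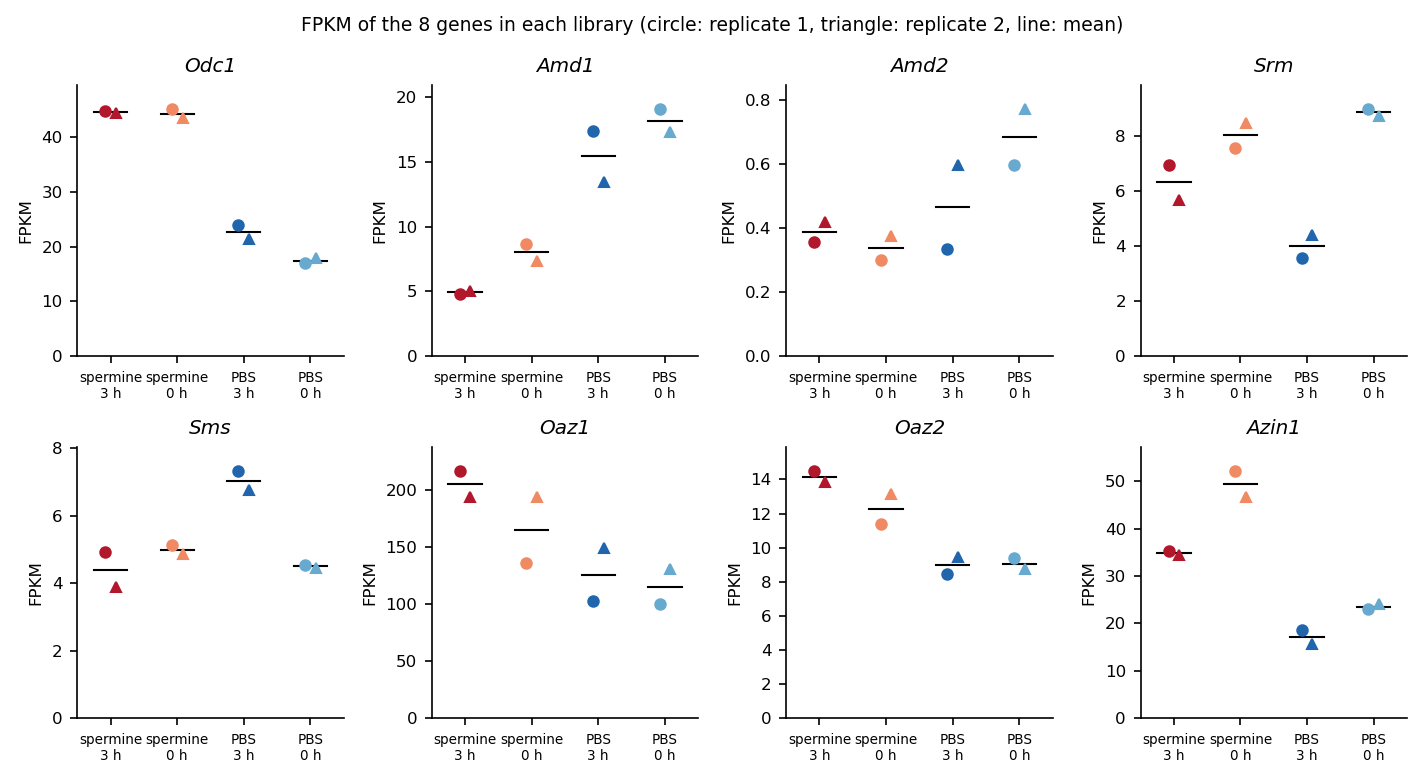
FPKM of each of the 8 genes in each of the 8 libraries, with spermine groups in red and orange and PBS groups in blue, 1 panel per gene with its own axis from 0. Circles are replicate 1, triangles replicate 2 and lines group means; Odc1 and Azin1 lie higher and Amd1 lower in all 4 spermine libraries than in all 4 PBS libraries.

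Odc1, the gene of the first enzyme of the pathway, had 44.8 and 44.5 FPKM in spermine libraries at 3 h, against 24.0 and 21.4 FPKM in PBS libraries at 3 h. At 0 h it had 45.1 and 43.5 FPKM with spermine, against 17.0 and 17.9 FPKM with PBS. All 4 spermine libraries lay within 43.5 to 45.1 FPKM and above every PBS library, with no overlap. Of the 100-base windows of its transcript, 19.6% occur in other genes, most often Gm17709, which holds 167 of these 413 windows. The log2 change was 0.95 ± 0.074 (SE) at 3 h, with a limma adjusted p of 0.000153, and 1.30 ± 0.074 at 0 h, with a limma adjusted p of 4.14e-05. Under every alternative scaling, model and omission of a library that was run, both changes stayed called, between 0.76 and 1.02 at 3 h and between 0.99 and 1.34 at 0 h.

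After IFN-β in PBS, Odc1 averaged 22.7 ± 1.81 FPKM at 3 h and 17.4 ± 0.635 FPKM at 0 h (SD, n = 2 each). That is a log2 change of 0.36 with a limma adjusted p of 0.00553, which became 0.047 with quantile normalization and −0.091 with TPM scaling. With spermine it averaged 44.6 ± 0.216 FPKM at 3 h and 44.3 ± 1.12 FPKM at 0 h, a log2 change of 0.010 with a limma adjusted p of 0.926. That change was −0.32 with TPM scaling and −0.33 with quantile normalization, with limma adjusted p of 0.00845 and 0.0104, so its direction hangs on the scaling. The IFN-β response with spermine minus that in PBS was −0.35 with a limma adjusted p of 0.0702, and −0.43 with an adjusted p of 0.0397 without PBS 3 h replicate 2.

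Amd1, which encodes SAM decarboxylase, had 4.82 and 5.06 FPKM in spermine libraries at 3 h, against 17.4 and 13.4 FPKM in PBS libraries at 3 h. Before IFN-β, at 0 h, it had 8.68 and 7.37 FPKM with spermine, against 19.1 and 17.3 FPKM with PBS. Each spermine library lay below each PBS library, and the 2 at 3 h were the lowest of all 8. The log2 change was −1.46 ± 0.13 at 3 h, with a limma adjusted p of 0.000284, and −1.09 ± 0.13 at 0 h, with a limma adjusted p of 0.000892. It stayed called under every alternative run, between −1.76 and −1.28 at 3 h and between −1.49 and −0.99 at 0 h. At 0 h Amd1 stood above 57.0% of tested protein-coding genes with spermine and above 80.1% with PBS.

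The IFN-β change of Amd1 was −0.60 with spermine, with a limma adjusted p of 0.0103, and −0.23 in PBS, with a limma adjusted p of 0.183. The call with spermine was lost without spermine 3 h replicate 1, at −0.57 and a limma adjusted p of 0.0627, and without spermine 0 h replicate 1, at −0.50 and 0.0594. The PBS change was called without PBS 3 h replicate 1, at −0.41, with TPM scaling, at −0.71, and with quantile normalization, at −0.52. The difference between the 2 responses was −0.37 with a limma adjusted p of 0.243.

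Amd2, the intronless copy, was under 1 FPKM in every library and was not tested. It had 0.355 and 0.419 FPKM with spermine at 3 h and 0.334 and 0.596 FPKM with PBS at 3 h. It had 0.300 and 0.376 FPKM with spermine at 0 h and 0.597 and 0.771 FPKM with PBS at 0 h. The groups overlapped at 3 h and did not at 0 h, and the values rest on 15 to 50 reads per library. With no filter on low values its log2 change at 0 h was −0.33 with a limma adjusted p of 0.112. Of the 100-base windows of the Amd1 transcript, 76.4% occur unchanged in a transcript of another gene, mostly Amd2, so how the reads were divided between them is uncertain. With the FPKM of Amd1 and Amd2 summed, the log2 change was −1.41 at 3 h and −1.09 at 0 h, and it stayed called.

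Srm, spermidine synthase, had 6.97 and 5.69 FPKM in spermine libraries at 3 h, against 3.58 and 4.41 FPKM in PBS libraries at 3 h. In the 0 h libraries it had 7.59 and 8.49 FPKM with spermine, against 8.98 and 8.75 FPKM with PBS. The PBS libraries at 3 h were the lowest of all 8, and at 0 h the gap between the treatments was small. The log2 change at 3 h was 0.55 ± 0.12, with a limma adjusted p of 0.0108. That call was lost without spermine 3 h replicate 1, at 0.43 and a limma adjusted p of 0.0691, and without PBS 3 h replicate 1, at 0.43 and 0.0536. At 0 h the change was −0.13 with a limma adjusted p of 0.434, and −0.47 with a limma adjusted p of 0.0226 under TPM scaling.

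Sms, spermine synthase, whose product the cells were given, had 4.93 and 3.89 FPKM in spermine libraries at 3 h, against 7.32 and 6.77 FPKM in PBS libraries at 3 h. At 0 h it had 5.13 and 4.86 FPKM with spermine, against 4.55 and 4.47 FPKM with PBS. The PBS libraries at 3 h were the highest of all 8, and the other 6 spanned 3.89 to 5.13 FPKM. The log2 change at 3 h was −0.58 ± 0.10, with a limma adjusted p of 0.00507, and it stayed called between −0.83 and −0.44 under every alternative run. At 0 h this was 0.12 with a limma adjusted p of 0.390, and −0.19 under TPM scaling.

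The 2 synthase genes moved in opposite directions after IFN-β in PBS. There Srm averaged 4.00 ± 0.586 FPKM at 3 h and 8.87 ± 0.165 FPKM at 0 h, a log2 change of −0.99 with a limma adjusted p of 0.000478. Sms averaged 7.04 ± 0.391 FPKM at 3 h and 4.51 ± 0.0577 FPKM at 0 h, a log2 change of 0.55 with a limma adjusted p of 0.00428, which was 0.16 with a limma adjusted p of 0.252 under TPM scaling. With spermine, Srm changed by −0.31 and Sms by −0.15, with limma adjusted p of 0.0815 and 0.280. Under TPM scaling these were −0.65 and −0.49 and both were called, and the Srm change was also called under quantile normalization, at −0.35.

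For Srm and Sms the difference of the IFN-β responses itself passed the test. It was 0.68 for Srm with a limma adjusted p of 0.0438, and −0.70 for Sms with a limma adjusted p of 0.0259. In this comparison 2 of the 7 genes passed, 1 higher and 1 lower, against a background of 13.6% of all tested genes, 5.82% higher and 7.75% lower. The count of all genes was 1550, and it lay between 520 and 886 when any 1 library was left out other than spermine 0 h replicate 2 or PBS 3 h replicate 2. With all libraries the Srm call was also lost with a pseudocount of 0.1, at 0.79 and a limma adjusted p of 0.0508, with no filter, at 0.68 and 0.0991, with no intensity trend, at 0.68 and 0.0515, and with limma voom, at 0.79 and 0.0508. The Sms call was lost with no filter, at −0.70 and a limma adjusted p of 0.0621. The Srm call was also lost on leaving out any library except PBS 3 h replicate 2, with values of 0.55 to 0.80 and limma adjusted p of 0.0591 to 0.137. The Sms call was also lost on leaving out any library except spermine 3 h replicate 1 or PBS 3 h replicate 2, with values of −0.73 to −0.56 and limma adjusted p of 0.0515 to 0.102. Sms shares 27.7% of its 100-base windows with other genes, mostly the pseudogene Sms-ps, which had 7.79 to 11.0 FPKM. With the reads of Sms-ps added, the difference for Sms was −0.54 with a limma adjusted p of 0.0366.

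**Figure D2:**
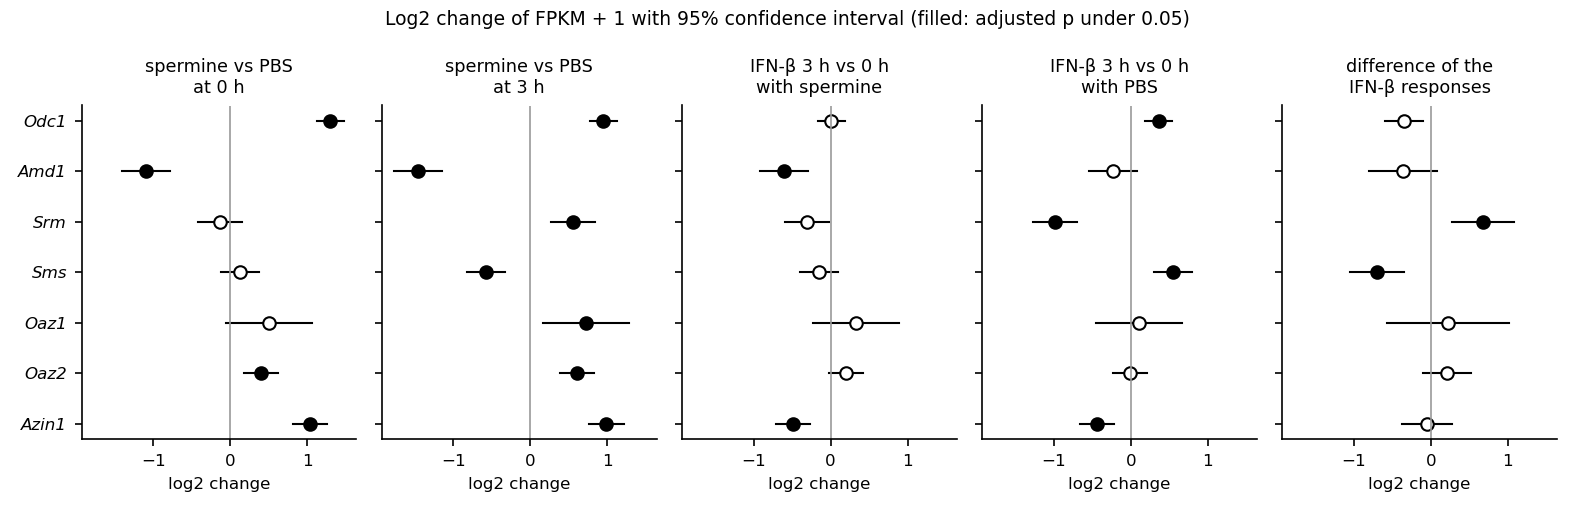
Log2 change of FPKM + 1 for the 7 tested genes in the 5 comparisons, as points with 95% confidence intervals from limma, filled where the adjusted p is under 0.05. Odc1 and Azin1 lie right of 0 and Amd1 left of 0 in both spermine comparisons, while for Srm and Sms the filled points at 3 h and the difference of responses have opposite signs; the Odc1 change with IFN-β in PBS, 0.36 here, is −0.091 under TPM scaling.

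Oaz1, the more abundant antizyme gene, was the highest of the 8 in all 4 groups. It had 216 and 194 FPKM in spermine libraries at 3 h, against 102 and 149 FPKM in PBS libraries at 3 h. In the 0 h libraries it had 136 and 193 FPKM with spermine, against 100.2 and 131 FPKM with PBS. The groups did not overlap at either time, but with large gaps between libraries of a group, so that its standard error was the largest of the 7. Replicate 2 was the higher library with spermine at 0 h and in both PBS groups, and the lower with spermine at 3 h. The log2 change was 0.72 ± 0.23 at 3 h with a limma adjusted p of 0.0458, and 0.50 ± 0.23 at 0 h with a limma adjusted p of 0.134. The 0 h change was 0.24 without spermine 0 h replicate 2, 0.75 without spermine 0 h replicate 1 and 0.31 without PBS 0 h replicate 1. It was 0.16 under TPM scaling and under quantile normalization.

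The 3 h call of Oaz1 was lost under several alternatives. The change was 0.52 with a limma adjusted p of 0.109 under TPM scaling, and 0.50 with 0.125 under quantile normalization. With no filter on low values and with no intensity trend the value stayed 0.72, with limma adjusted p of 0.121 and 0.0537. It was also not called without spermine 3 h replicate 1 or 2, PBS 3 h replicate 1, or PBS 0 h replicate 1 or 2, with values of 0.46 to 0.80 and limma adjusted p of 0.0544 to 0.209. Its direction was the same in all of these. After IFN-β, Oaz1 changed by 0.33 with spermine and 0.11 in PBS, with limma adjusted p of 0.297 and 0.732. These became −0.22 and −0.56 under quantile normalization, and the PBS value became −0.36 under TPM scaling, −0.16 without PBS 3 h replicate 2 and −0.081 without PBS 0 h replicate 1. Oaz1 shares 41.8% of its 100-base windows with its pseudogene Oaz1-ps, which had 2.17 to 8.96 FPKM, and adding those reads left the changes with spermine at 0.73 and 0.50.

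Oaz2, the other antizyme gene, had 14.5 and 13.9 FPKM in spermine libraries at 3 h, against 8.48 and 9.48 FPKM in PBS libraries at 3 h. At 0 h it had 11.4 and 13.1 FPKM with spermine, against 9.38 and 8.76 FPKM with PBS. All 4 spermine libraries lay above all 4 PBS libraries. The log2 change was 0.61 ± 0.092 at 3 h with a limma adjusted p of 0.00251, and it was called under every alternative run, between 0.44 and 0.68. At 0 h this was 0.39 ± 0.092 with a limma adjusted p of 0.0138. That call was lost without spermine 0 h replicate 2, at 0.30 and a limma adjusted p of 0.0662, without PBS 0 h replicate 2, at 0.35 and 0.0849, and under TPM scaling, at 0.083 and 0.526. With IFN-β, Oaz2 changed by 0.20 with spermine and −0.014 in PBS, with limma adjusted p of 0.132 and 0.920. The first was −0.12 under TPM scaling, and the second was −0.47 and called there, and 0.059 without PBS 3 h replicate 1 and 0.030 without PBS 0 h replicate 1.

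Azin1, the antizyme inhibitor gene, had 35.4 and 34.4 FPKM in spermine libraries at 3 h, against 18.6 and 15.8 FPKM in PBS libraries at 3 h. In the 0 h libraries it had 52.0 and 46.6 FPKM with spermine, against 23.0 and 24.1 FPKM with PBS. All spermine libraries were above all PBS libraries, and within each treatment both libraries at 3 h were below both at 0 h. The log2 change was 0.98 ± 0.095 at 3 h with a limma adjusted p of 0.000366, and 1.03 ± 0.095 at 0 h with a limma adjusted p of 0.000286. It stayed called under every alternative run, between 0.81 and 1.10 at 3 h and between 0.71 and 1.11 at 0 h.

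Azin1 fell with IFN-β in both treatments. It changed by −0.49 with spermine, with a limma adjusted p of 0.00639, and −0.44 in PBS, with a limma adjusted p of 0.00769. The PBS call was lost without PBS 0 h replicate 2, at −0.41 and a limma adjusted p of 0.0501. Under TPM scaling the changes were −0.83 and −0.92. Their difference was −0.050 with a limma adjusted p of 0.835, with a 95% interval of −0.37 to 0.27.

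Over the IFN-β comparisons, 2 of the 7 genes passed with spermine, both lower, against a background of 41.7%, 19.7% higher and 22.1% lower. In PBS 4 of the 7 passed, 2 higher and 2 lower, against a background of 49.6%, 24.6% higher and 25% lower. The libraries at 3 h and 0 h did not overlap for 5 of the 7 genes with spermine, beside 71.9% of all genes, and for 4 of the 7 in PBS, beside 74% of all genes. The median change of the 7 genes was −0.15 with spermine and −0.014 in PBS, beside −0.013 and −0.016 over all tested genes. The count with spermine was 5 under TPM scaling and 4 under quantile normalization, all lower. Under TPM scaling 56% of all tested genes were called there, 12% higher and 44% lower, and under quantile normalization 45%, 15.1% higher and 29.9% lower. In PBS under TPM scaling 4 passed, all lower, beside 70.1% of all tested genes, 14.8% higher and 55.3% lower. With spermine the count was 1 without spermine 3 h replicate 1 or without spermine 0 h replicate 1.

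Of the members' directions, TPM scaling or quantile normalization turned that of Sms for spermine at 0 h, those of Odc1, Oaz1 and Oaz2 in IFN-β comparisons, and that of Azin1 in the difference of the responses, which was 0.093 under TPM scaling. The deposited FPKM hold the median gene steady, which TPM do not. Summed FPKM lay between 400534 and 404833 with spermine at 3 h, 316283 and 321894 with spermine at 0 h, 345825 and 351671 with PBS at 3 h, and 248254 and 253576 with PBS at 0 h. Going to TPM moved the median gene by −0.20 (log2) for spermine against PBS at 3 h and by −0.34 at 0 h. It moved it by −0.33 for IFN-β with spermine, by −0.46 for IFN-β in PBS and by 0.14 for the difference of the responses.

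**Figure D3:**
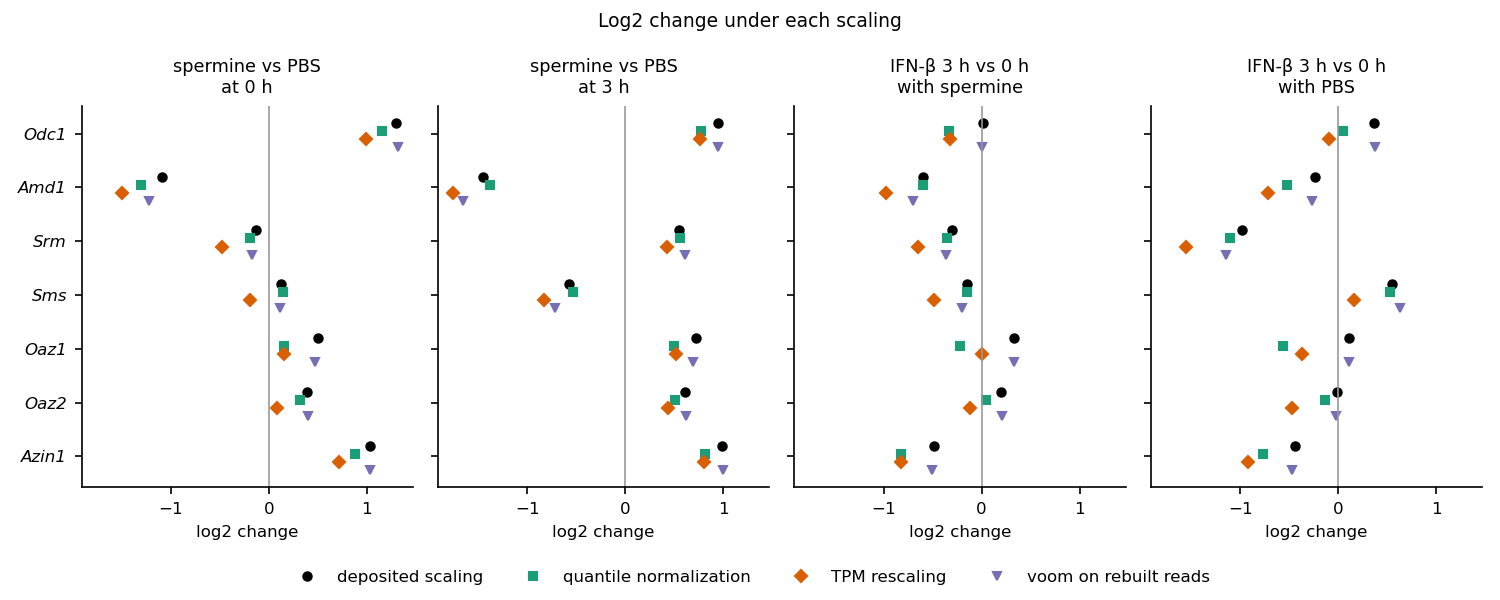
Log2 change of the 7 tested genes in 4 comparisons under the deposited scaling, quantile normalization, TPM scaling and a weighted limma fit on rebuilt reads. The spermine changes of Odc1, Amd1 and Azin1 keep their side of 0 under all 4, Sms at 0 h goes to −0.19 with TPM scaling, and the IFN-β changes of Odc1, Oaz1 and Oaz2 cross 0 between scalings.

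The order of the 8 genes by FPKM, a level per gene length, differed between the groups below Oaz1. With spermine at 3 h the order was Oaz1, Odc1, Azin1, Oaz2, Srm, Amd1, Sms and Amd2, and Amd1 and Sms overlapped. With spermine at 0 h it was Oaz1, Azin1, Odc1, Oaz2, Srm, Amd1, Sms and Amd2, with Srm and Amd1 overlapping. With PBS at 3 h it was Oaz1, Odc1, Azin1, Amd1, Oaz2, Sms, Srm and Amd2, with Azin1 and Amd1 overlapping. With PBS at 0 h it was Oaz1, Azin1, Amd1, Odc1, Oaz2, Srm, Sms and Amd2, and neither Amd1 and Odc1 nor Oaz2 and Srm were separated by their libraries. Amd1 stood next to Odc1 in PBS at 0 h and below Srm in both spermine groups, by overlapping libraries at 0 h. The rank of Amd1 is uncertain, since how reads shared with copies were counted is not known. Of its 100-base windows 23.6% were unique, against 80.4% for Odc1 and 100% for Srm. The gene lengths behind FPKM also exceeded those of the transcripts compared unevenly, with 2558 against 1071 bases for Oaz1 and 1599 against 1338 for Srm.

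Ratios within a library do not depend on how libraries are scaled to each other. Their size does depend on the gene lengths used and on how reads shared with copies were counted. The ratio of Amd1 to Odc1 FPKM was 0.108 and 0.114 in spermine libraries at 3 h, against 0.725 and 0.627 in PBS libraries at 3 h. At 0 h it was 0.192 and 0.169 with spermine, against 1.12 and 0.970 with PBS. Its mean log2 value with spermine minus that with PBS was −2.61 at 3 h and −2.53 at 0 h. At 3 h minus 0 h it was −0.71 with spermine and −0.63 in PBS, with no overlap in any of the 4 comparisons. With 2 libraries a group, the exact two-sided permutation test cannot give a p under 0.333, which is the value for each.

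The ratio of summed antizyme FPKM, Oaz1 plus Oaz2, to Azin1 was 6.52 and 6.04 in spermine libraries at 3 h, against 5.96 and 10.1 in PBS libraries at 3 h. At 0 h this was 2.83 and 4.43 with spermine, against 4.76 and 5.79 with PBS. The treatments overlapped at 3 h and did not at 0 h, and within each treatment both libraries at 3 h were above both at 0 h. The mean log2 ratio differed between spermine and PBS by −0.30 at 3 h, which is 0.074 without PBS 3 h replicate 2, and by −0.57 at 0 h, which is −0.25 without spermine 0 h replicate 1 and −0.89 without spermine 0 h replicate 2. It differed between 3 h and 0 h by 0.83 with spermine, which is 0.50 without spermine 0 h replicate 1. In PBS it differed by 0.56, which is 0.18 without PBS 3 h replicate 2 and 0.94 without PBS 3 h replicate 1. The exact permutation p was 0.333 where groups did not overlap, the smallest it can be.

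The ratio of Odc1 to summed antizyme FPKM was 0.194 and 0.214 in spermine libraries at 3 h, against 0.216 and 0.135 in PBS libraries at 3 h. At 0 h the value was 0.307 and 0.211 with spermine, against 0.155 and 0.128 with PBS. The treatments overlapped at 3 h and did not at 0 h. The mean log2 ratio was higher with spermine by 0.85 at 0 h, and differed by 0.25 at 3 h, which is −0.085 without PBS 3 h replicate 2. At 0 h it was −1.98 ± 0.38 with spermine and −2.83 ± 0.19 with PBS (SD, n = 2 each). The exact permutation p at 0 h was 0.333, the smallest it can be.

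**Figure D4:**
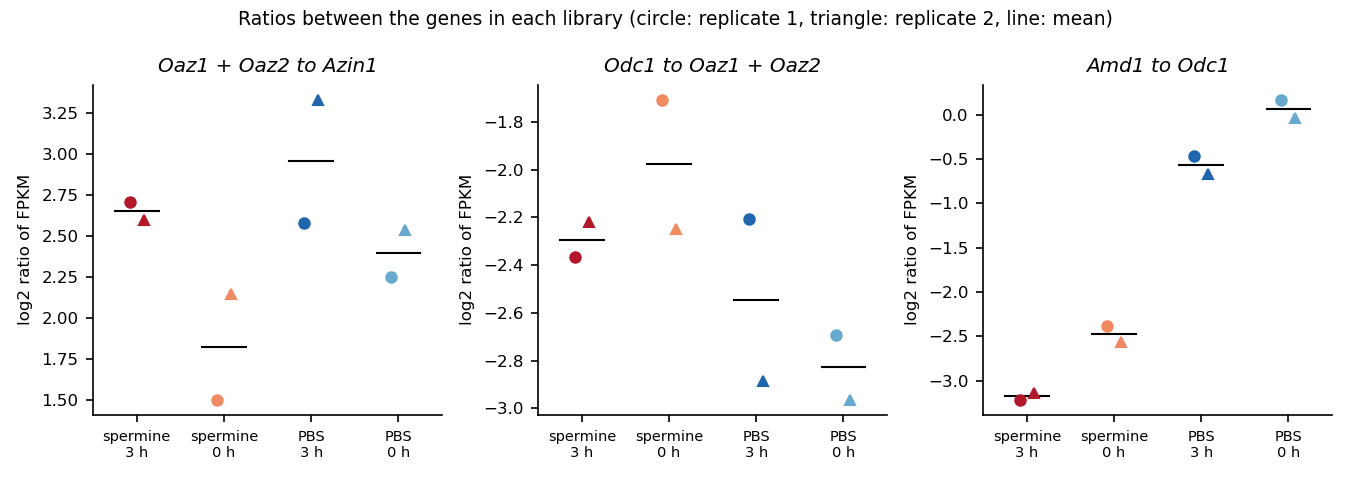
Log2 ratios of FPKM between genes within each of the 8 libraries, with circles for replicate 1, triangles for replicate 2 and lines for group means. The Amd1 to Odc1 ratio is at most −2.38 in every spermine library and at least −0.67 in every PBS library, while the antizyme ratios of spermine and PBS libraries overlap at 3 h.

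Of 22 other polyamine genes, covering breakdown, precursor supply, transport and the hypusine pathway, 18 were tested. At 3 h 6 were higher and 3 lower with spermine, and at 0 h again 6 were higher and 3 lower, beside the 40.5% and 41.2% of all genes called. Their median change was 0.060 at 3 h and 0.11 at 0 h. Under TPM scaling the counts were 3 higher and 6 lower at 3 h and 4 higher and 5 lower at 0 h, where 43.9% and 51.9% of all genes were called. After IFN-β 7 were higher and 3 lower with spermine, and 6 higher and 2 lower in PBS, beside the 41.7% and 49.6% of all genes called. Under TPM scaling these were 5 and 6 with spermine, and 4 and 8 in PBS, where 56% and 70.1% of all genes were called.

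Of the genes that break polyamines down, Smox and Sat1 were higher with spermine and Paox was lower. Smox, spermine oxidase, had 72.8 and 66.1 FPKM with spermine against 27.2 and 37.3 FPKM with PBS at 3 h, and 25.3 and 31.4 FPKM with spermine against 12.5 and 16.1 FPKM with PBS at 0 h. Its log2 change was 1.10 at 3 h and 0.94 at 0 h, with limma adjusted p of 0.00361 and 0.00672. Sat1, the acetyltransferase that marks spermidine and spermine for breakdown and export, averaged 301 ± 1.03 FPKM with spermine and 211 ± 12.8 FPKM with PBS at 3 h, and 157 ± 4.80 FPKM with spermine and 98.6 ± 3.09 FPKM with PBS at 0 h. Its log2 change was 0.51 at 3 h and 0.67 at 0 h, with limma adjusted p of 0.00134 and 0.000419. No library of Smox or Sat1 with spermine overlapped PBS at the same time, and all 4 calls held under every alternative run. Both were also higher at 3 h of IFN-β than at 0 h. On the log2 scale the change was 1.27 with spermine and 1.11 in PBS for Smox, and 0.93 and 1.09 for Sat1, with limma adjusted p of 0.00167, 0.00216, 5.56e-05 and 1.52e-05 in that order. Paox, the oxidase of acetylated polyamines, which fell outside the rule for naming genes and was picked after its values were seen, went the other way, at −0.47 at 3 h and −0.69 at 0 h, with limma adjusted p of 0.0146 and 0.00301.

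Of the other polyamine genes, Slc3a2 and Slc7a2 also had a called change of at least 1 log2 unit. Slc3a2, the shared heavy chain of several amino acid transporters, had 355 and 320 FPKM with spermine against 134 and 145 FPKM with PBS at 3 h, and 236 and 273 FPKM with spermine against 93.2 and 97.5 FPKM with PBS at 0 h. Its log2 change was 1.26 at 3 h and 1.40 at 0 h, with limma adjusted p of 0.000134 and 8.02e-05. Slc7a2, a transporter of arginine, lysine and ornithine, had 2.24 and 2.19 FPKM with spermine against 5.80 and 5.17 FPKM with PBS at 3 h, and 1.09 and 0.951 FPKM with spermine against 2.15 and 2.18 FPKM with PBS at 0 h. Its log2 change was −1.01 at 3 h and −0.65 at 0 h, with limma adjusted p of 0.00026 and 0.00155. Neither gene overlapped between treatments at the same time, and these calls held under every alternative run.

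**Figure D5:**
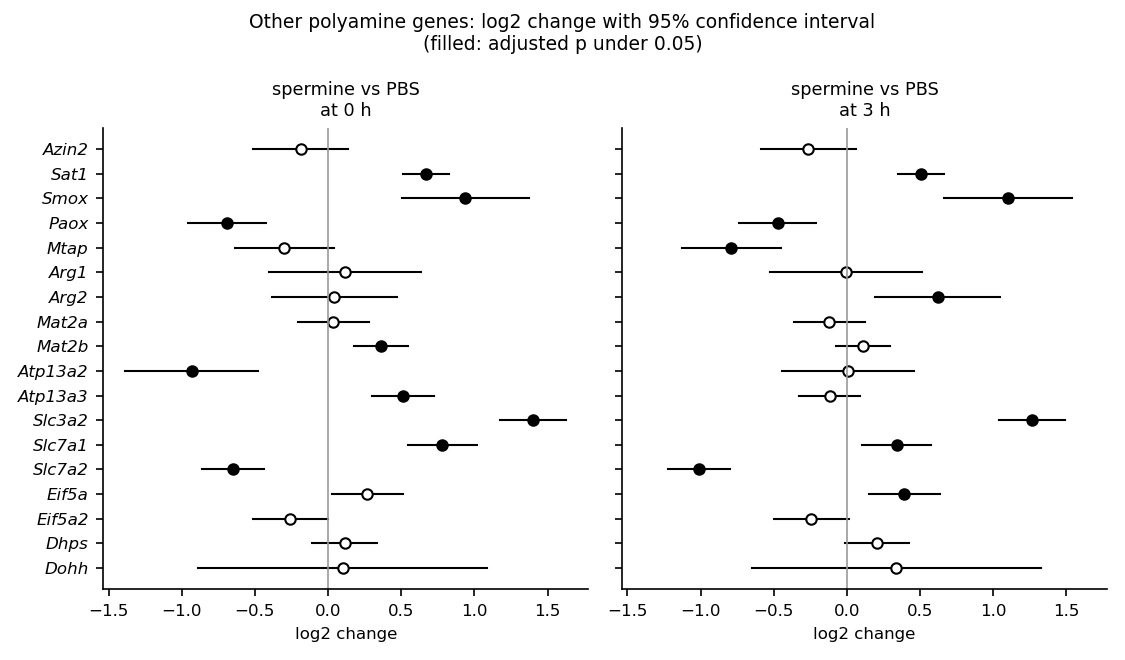
Log2 change of FPKM + 1 between spermine and PBS at 0 h and 3 h for the 18 tested genes of the wider polyamine list, as points with 95% confidence intervals from limma, filled where the adjusted p is under 0.05. Slc3a2 lies farthest to the right at both times, with Smox next, and Slc7a2 is the only point left of −1 at 3 h.

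Of the 8 genes of the MYC network, which includes the transcription factor MYC, known to drive Odc1 in other cells, 7 were tested. With spermine 4 were higher and 1 lower at 3 h, and 4 were higher and 1 lower at 0 h, beside the 40.5% and 41.2% of all genes called. Under TPM scaling the counts were 3 and 2 at 3 h and 2 and 2 at 0 h, beside 43.9% and 51.9%. Myc had 2.94 and 2.85 FPKM with spermine against 0.607 and 0.889 FPKM with PBS at 3 h, and 8.09 and 7.69 FPKM with spermine against 3.73 and 4.68 FPKM with PBS at 0 h. Its log2 change with spermine was 1.16 at 3 h and 0.78 at 0 h, with limma adjusted p of 0.00049 and 0.00253, and no libraries overlapped. With IFN-β Myc changed by −1.19 with spermine and −1.57 in PBS, with limma adjusted p of 0.000304 and 4.75e-05. In mean FPKM these were falls of 2.72-fold and 5.62-fold, as the log2(FPKM + 1) scale understates changes of genes this low. These Myc calls held under every alternative run. Odc1 changed by 0.010 and 0.36 in the same comparisons, and both directions turned under TPM scaling. A part of Myc in the changes of Odc1 was not tested. Mnt, a repressor of the same network, had 7.41 and 7.11 FPKM with spermine against 1.42 and 1.93 FPKM with PBS at 3 h, a log2 change of 1.63 with a limma adjusted p of 0.000273. At 0 h its change was 0.11 with a limma adjusted p of 0.600, and −0.23 under TPM scaling.

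The 6 genes listed under methionine salvage, a pathway that recycles the by-product of the 2 synthases, were all tested. With spermine 1 was higher and none lower at 3 h, and 1 was higher and 2 lower at 0 h, beside the 40.5% and 41.2% of all genes called. Under TPM scaling the counts were 1 higher and 1 lower at 3 h and none higher and 4 lower at 0 h, beside 43.9% and 51.9%. None of the 6 reached the size at which a gene is named.

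For the 3 members whose group means spanned at least 1 log2 unit, the tested protein-coding genes with the most similar profile over the 8 libraries were looked up among 9809. For Odc1 they included Vps26a and Ednrb, with Pearson r of 0.995 and 0.994. For Amd1 they were Trove2, Tlr2 and Cpd, with r of 0.994, 0.992 and 0.992. For Azin1 they were Rnf128, Zfp592 and Mgea5, each with r of 0.997. The 8 points fall in 4 groups and share their scaling, so these values are descriptions. Ednrb differed far more in size than Odc1, with means of 76.4 and 84.8 FPKM with spermine at 3 h and 0 h, against 5.64 and 2.99 FPKM with PBS at the same times.

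The libraries held 15723437 to 17744844 reads assigned to genes. All 10 macrophage markers were detected and tested, with summed FPKM of 12748 to 14299 in spermine libraries and 11624 to 12590 in PBS libraries, most of it from Lyz2. Single markers differed from that sum: Mertk averaged 20.4 FPKM with spermine and 32.5 FPKM with PBS at 3 h, and 6.04 FPKM with spermine and 14.4 FPKM with PBS at 0 h. Fcgr1 averaged 492 FPKM with spermine and 624 FPKM with PBS at 3 h, and 35.6 FPKM with spermine and 52.3 FPKM with PBS at 0 h. Cd3e, Cd3d, Cd3g, Ly6g, Hbb-bs, Hbb-bt, Hba-a1 and Mcpt8, which define T cells, neutrophils, red cells and basophils, were at 0 in every library. Other markers of these lists were not at 0. The 6 T cell markers summed to 5.01 to 5.25 FPKM with spermine at 3 h, 3.00 to 3.50 FPKM with spermine at 0 h, 7.67 to 7.85 FPKM with PBS at 3 h and 2.70 to 2.75 FPKM with PBS at 0 h, most of it from Cd4 and Lck. The 8 markers of neutrophils and their precursors summed to 7.24 to 9.84 FPKM with spermine and 6.06 to 10.2 FPKM with PBS, mostly from S100a8, S100a9 and Ngp. The 6 erythroid and platelet markers summed to 38.3 to 58.3 FPKM with spermine and 22.3 to 26.3 FPKM with PBS, with most of the sum from Pf4. The 4 dendritic cell markers summed to 5.68 to 6.54 FPKM with spermine at 3 h, 1.19 FPKM with spermine at 0 h, 3.22 to 4.50 FPKM with PBS at 3 h, and 0.325 to 0.336 FPKM with PBS at 0 h. Most of that sum was Xcr1, except with PBS at 0 h, and Zbtb46, another marker of that list, stayed at or under 0.0323 FPKM. The part of these markers in the changes of the polyamine genes was not tested.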

How the data were processed

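RNA was sequenced from 8 libraries, 2 in each of 4 groups. Per the labels' protocols, poly-T beads were used to purify mRNA and random hexamers to prime it, and no strand is stated. The authors deposited FPKM per gene, with gene length and position on GRCm38. The submitters' processing notes list HISAT2 2.0.5, fastp and CASAVA 1.8. They also list DESeq2 1.20.0, the builds mm10 and GRCm38, and featureCounts 1.5.0-p3, all without order or role. The sources used here do not say how reads matching several genes were treated.

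Multiplied by gene length, 100% of the FPKM were whole multiples of 1 step in each library, within 0.001 of a read. Reads were rebuilt from this step, and they totalled 15723437 to 17744844 per library. The step matched median-of-ratios size factors. Members were found by symbol, and where several rows shared a symbol the row with most reads kept it, which left 103 rows unnamed. The 11421 genes that reached 1 FPKM in 2 or more libraries were fitted as log2(FPKM + 1) with limma 3.58.1 (R 4.3.3, data.table package, version 1.17.8) over 4 group means, with 4 residual and 2.83 prior degrees of freedom and an intensity trend. Fold changes on this scale understate those of low genes. There were 5 comparisons: spermine against PBS, once at 3 h and once at 0 h, 3 h against 0 h with spermine and with PBS, and the difference of those responses. Tests were two-sided, and p-values were adjusted by Benjamini-Hochberg over all tested genes of a comparison, with calls at an adjusted p under 0.05. Adjusted p-values in the text are limma's unless a permutation is named. The fit was tested on simulated data. Ratios of FPKM used an exact permutation test.

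The members and gene lists were chosen with earlier results of these data known. All 8 members were named. Genes of the other lists were named if called with an absolute log2 change of at least 1 between spermine and PBS at either time, and Sat1, Smox and Myc in any case. For members spanning at least 1 log2 unit between group means, the 3 most correlated tested protein-coding genes were named. A few genes that these rules or the marker lists take in are not reported here. Alternatives were another pseudocount (0.1), no filter, TPM scaling, quantile normalization, no trend, a replicate block, limma voom on rebuilt reads, fitting only the groups compared, summing Amd1 and Amd2, ratios of rebuilt reads, and leaving out each library. Adding the reads of near-identical copies was chosen after seeing the data. Of 54532 gene identifiers, those of all 8 members had the same position in GENCODE M21. Sequences were read from GENCODE M21 transcripts, with positions from its annotation (GRCm38), and from RefSeq start windows (GRCm38.p6). Tables and figures were made with Python 3.11.15, numpy 2.4.6, pandas 2.3.3, scipy 1.17.1 and matplotlib 3.10.9.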

Additional observations from a re-analysis of the deposited data

Results flagged for a closer look

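Of the 7 tested genes, Srm and Sms were flagged because the test of the difference between the IFN-β responses with spermine and with PBS passed. In that comparison 13.6% of all tested genes passed. The Srm response with spermine minus that with PBS was 0.68 on the log2 scale, at −0.31 with spermine and −0.99 with PBS, with a limma adjusted p of 0.0438. The same difference for Sms was −0.70, at −0.15 with spermine and 0.55 with PBS, with a limma adjusted p of 0.0259. Both calls were lost with no filter on low values, where the limma adjusted p was 0.0991 for Srm and 0.0621 for Sms. That of Srm was also lost with a pseudocount of 0.1, with no intensity trend, with a replicate block and with limma voom, and both were lost on leaving out most single libraries, as given with the results.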

How the results depend on the processing

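With 2 libraries a group, 1 library can decide a call, and low members rest on few reads, 15 to 50 per library for Amd2. The spermine changes of Odc1, Amd1 and Azin1 kept direction and call under every alternative run, at both times, as did those of Sms and Oaz2 at 3 h. Under TPM scaling these log2 changes turned: Sms (−0.19) and Mnt (−0.23) for spermine at 0 h, Odc1 (−0.32) and Oaz2 (−0.12) for IFN-β with spermine, Odc1 (−0.091) and Oaz1 (−0.36) for IFN-β in PBS, and Azin1 (0.093) for the difference of the responses. Under quantile normalization they were Mnt (−0.072) for spermine at 0 h, Odc1 (−0.33), Oaz1 (−0.22) and Slc3a2 (−0.21) for IFN-β with spermine, and Oaz1 (−0.56) and Slc3a2 (−0.11) in PBS. TPM scaling gave 0 members higher and 5 lower for IFN-β with spermine, and 0 higher and 4 lower in PBS, while of all 11421 tested genes 1375 were higher and 5022 lower with spermine, and 1692 and 6314 in PBS. The cause was not tested.

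Leaving out 1 library at a time, small changes crossed 0: Mnt for spermine at 0 h (−0.063 to 0.27), Odc1 for IFN-β with spermine (−0.015 to 0.035), and Oaz1 (−0.16 to 0.38) and Oaz2 (−0.086 to 0.059) for IFN-β in PBS. For the difference of the responses they were Oaz1 (−0.043 to 0.49), Azin1 (−0.16 to 0.063) and Smox (−0.059 to 0.38). The genes called were 2999 to 4897 for spermine at 0 h, 2912 to 4645 at 3 h and 520 to 1671 for the difference, against 4706, 4626 and 1550 with all libraries. The members called for the difference were 0 to 3, against 2. They were 1 with a pseudocount of 0.1, with no trend and with limma voom, and 0 with no filter. For IFN-β with spermine they were 5 under TPM scaling, beside 56% of all tested genes, 44% lower. They were 4 under quantile normalization, beside 45% of all tested genes, 29.9% lower.

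Replicate numbers were shared between groups, but the labels do not say what a number marks. Same-numbered libraries deviated together in some pairs of groups and not in others. The correlation across genes was 0.37 for spermine 0 h with PBS 3 h, 0.25 for spermine 0 h with PBS 0 h and 0.23 between the PBS groups. For spermine 3 h it was −0.13 with spermine 0 h, −0.089 with PBS 3 h and −0.061 with PBS 0 h. With the replicate number as a block, limma called 4978 genes for spermine against PBS at 3 h, 4996 at 0 h, 5033 for IFN-β with spermine, 5956 for IFN-β in PBS and 1813 for the difference of the responses. Among the members the block moved 1 call, Srm in the difference of the responses, at 0.68 with a limma adjusted p of 0.0529, which left 1 member called.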
